A study of Homo sapiens with 12 samples.

Results

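The genes described here are TAGLN and 9 other genes of the contractile actin apparatus (CSRP1, CNN1, CNN2, TPM1, TPM2, MYL9, ACTA2, CALD1 and VCL), taken by symbol from the 28576 genes of the deposited table. All 10 symbols were found, and 8 of the 10 passed the filter on low values (0.5 CPM or more in 3 libraries or more, where CPM is a gene's reads per 1000000 reads of its library). CNN1 and MYL9 did not pass it. The genes were chosen by symbol, and the choice was made with earlier results from these CPM values in view, so every level and group difference counts as used. The members' levels and changes are therefore a description. Where a member is said to be called, or past the threshold, this gives its side of the threshold applied to all genes and is no test of that member.

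TAGLN encodes transgelin (SM22), a small protein that binds actin filaments and is a classical marker of smooth muscle cells and of fibroblasts that become contractile. In contractile cells actin filaments carry tropomyosins, which with caldesmon and calponins regulate the access of myosin. Myosin is switched on by phosphorylation of its regulatory light chain, and vinculin ties the filaments to adhesion sites. Many genes of this apparatus are known targets of serum response factor (SRF) and its actin-sensing coactivators, the myocardin-related transcription factors MRTFA and MRTFB. SRF binds a DNA element known as the CArG box, and many of the same genes are also known targets of TGF-beta and of YAP with TEAD factors.

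Poly(A) RNA was sequenced from SHEP, an established human neuroblastoma line of mesenchymal type, carrying a MYCN-ER fusion that responds to 4-hydroxytamoxifen (OHT) and a hairpin RNA against TCEAL1 whose expression is switched on by doxycycline (Dox). The 4 groups of 3 libraries are Ctrl (neither compound), OHT (200 nM OHT), Dox (1 µg/ml Dox) and OHT_Dox (both), and the cells of every group carry the fusion and the hairpin construct. No group with OHT but no fusion, or with Dox but no hairpin or another hairpin, was analysed here, so the compounds and what they induce cannot be told apart. No treatment times are given, and whether the replicates came from different cultures or clones is not labelled, so every p-value reflects the scatter of these libraries alone, which may be technical.

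The libraries held between 44466458 and 57694970 reads. TCEAL1, the hairpin's target, lay between 8.23 and 10.7 CPM in the 6 libraries without Dox and between 1.73 and 2.74 CPM in the 6 with it. Of 6 smooth muscle markers (MYH11, DES, LMOD1, MYOCD, SMTN, SYNPO2), 1 was below 1 CPM in every library, MYOCD, which encodes myocardin, a coactivator found in smooth muscle. It was at 0 in at least 1 library and at most 0.303 CPM. The summed level of the 6 was 59.9 to 69.1 CPM in Ctrl, 39.4 to 45.6 in OHT, 59.2 to 64.1 in Dox and 45.7 to 50.4 in OHT_Dox. Nearly all of it came from SMTN and MYH11, and DES, LMOD1 and SYNPO2 each lay at or below 1.35 CPM. The part of this sum in the members' values was not tested. The 7 mesenchymal markers, led by vimentin (VIM), summed to 3454 to 4411 CPM over all libraries. OHT replicate 1 stood low for these genes: 1 of the 8 tested members was above its group mean there, and TAGLN deviated from that mean by -0.23 on the log2 scale. Results that rest on that library are given with and without it.

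The promoters are shown first, because the CArG box and the TEAD element are the sequence elements through which these genes are best known to be controlled. RefSeq windows (build GRCh38.p14, 250 bases before to 50 bases after a transcription start) were found for 8 of the 10 members, 15 windows in all. None was found for TAGLN and MYL9. Below are the 250 bases upstream of 1 start for 4 members, 5′ to 3′ on the gene's strand, in lower case with matches in capitals. Of the 8 members searched, CNN2 (chr19:1026358-1026607, plus strand) is the 1 with an exact CArG box in a window. TAGLN and MYL9 were not searched, and bases outside the windows were not searched for any member. ACTA2 (chr10:88952774-88953023, minus strand) has the textbook smooth muscle promoter. Among the 8, CSRP1 (chr1:201496574-201496823, minus strand) and TPM1 (chr15:63048239-63048488, plus strand) have the clearest changes with Dox, upward and downward.
CNN2: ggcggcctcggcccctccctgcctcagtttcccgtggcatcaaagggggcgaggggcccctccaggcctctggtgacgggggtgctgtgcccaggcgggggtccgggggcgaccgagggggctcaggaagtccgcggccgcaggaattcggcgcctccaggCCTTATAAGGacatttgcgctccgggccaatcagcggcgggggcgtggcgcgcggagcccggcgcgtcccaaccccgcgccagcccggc
ACTA2: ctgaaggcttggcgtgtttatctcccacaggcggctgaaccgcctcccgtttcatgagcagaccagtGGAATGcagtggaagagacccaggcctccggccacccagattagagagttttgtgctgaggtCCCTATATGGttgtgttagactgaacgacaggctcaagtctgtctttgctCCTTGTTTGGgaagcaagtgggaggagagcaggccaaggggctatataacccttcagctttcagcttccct
CSRP1: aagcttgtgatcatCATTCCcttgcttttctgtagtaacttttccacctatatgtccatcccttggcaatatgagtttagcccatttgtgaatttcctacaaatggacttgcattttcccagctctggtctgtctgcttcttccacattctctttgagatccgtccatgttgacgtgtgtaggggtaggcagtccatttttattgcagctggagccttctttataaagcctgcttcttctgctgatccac
TPM1: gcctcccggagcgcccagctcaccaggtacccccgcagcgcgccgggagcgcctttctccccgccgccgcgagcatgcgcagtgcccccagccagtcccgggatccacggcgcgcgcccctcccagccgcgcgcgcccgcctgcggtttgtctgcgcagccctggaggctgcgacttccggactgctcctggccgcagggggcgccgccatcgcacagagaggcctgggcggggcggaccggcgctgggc

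In CNN2 the capitals mark CCTTATAAGG at bases -89 to -80 from the start, an exact CArG box, which 1.29% of all 35116 RefSeq windows hold. In ACTA2 they mark CCCTATATGG at -121 to -112 and CCTTGTTTGG at -71 to -62, each 1 base away from the CArG box. With 1 mismatch allowed, 18.9% of all windows hold such a match, and 4 of the 15 member windows do (of CNN2, ACTA2 and CALD1). The capitals further upstream in ACTA2, and those in CSRP1, are the TEAD element GGAATG or its reverse complement CATTCC. It was found on either strand in 5 of the 15 member windows (of CSRP1, ACTA2, CALD1 and VCL) and in 14% of all windows. In CSRP1 it was in 1 of 3 windows, the one printed. That start lies downstream of the others, whose 250 upstream bases are chr1:201506840-201507089 and chr1:201507124-201507373 and whose windows held no match. The E-box CACGTG, a MYC and MYCN element, was found in 0 of the 15 member windows and in 7.26% of all windows. The window of TPM1 held none of these letters. The motifs do not overlap each other in the printed sequences, both strands were searched, and a match is a description of the letters, not of binding.

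The members differed widely in level. Per kilobase of exon, with CNN2, TPM2 and TPM1 as the most abundant, Ctrl levels were 67.5 ± 4.84, 56.9 ± 8.46 and 48.1 ± 1.28 CPM per kb (SD, n = 3). VCL followed at 28.7 ± 2.75, CSRP1 at 17.4 ± 1.38 and CALD1 at 13.4 ± 0.555 CPM per kb. TAGLN, at 8.37 ± 0.501, and ACTA2, at 7.45 ± 0.479 CPM per kb, were the lowest of the 8 tested. The Ctrl libraries of CNN2 and TPM2 overlapped, as did those of TAGLN and ACTA2, and other neighbours in this order did not overlap. CNN1 (0.123 CPM per kb) and MYL9 (0.0105 CPM per kb) were near 0. The genes named as smooth muscle markers in many tissues, TAGLN, ACTA2, CNN1 and MYL9, were thus the 4 lowest in these cells.

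**Figure D1:**
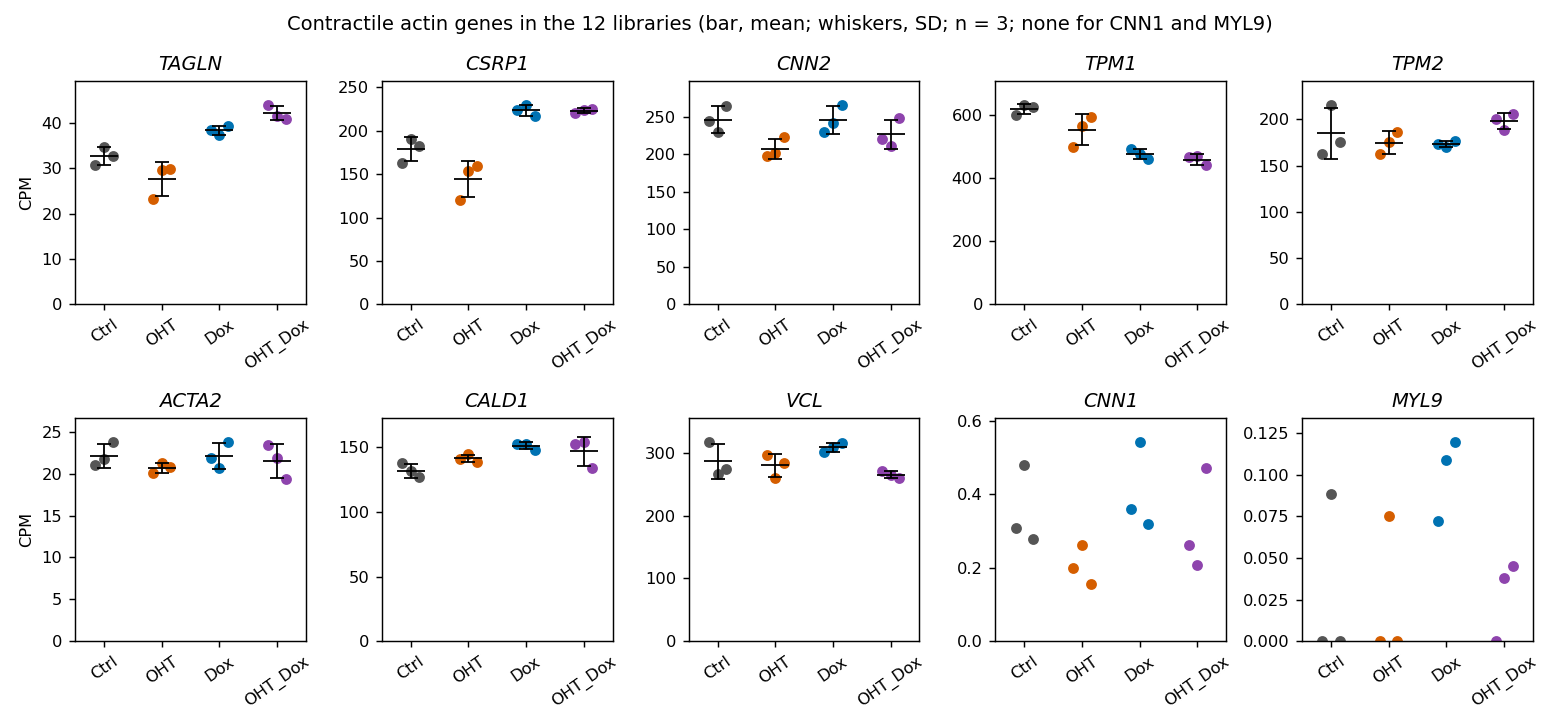
CPM of the 10 genes (y axis, CPM from 0, a separate scale for each gene) in the 12 libraries by group (x axis), 1 point per library with the group mean and SD, except for CNN1 and MYL9, whose points rest on 30 reads or fewer. TAGLN and CSRP1 are lowest in OHT and highest in the groups with Dox, TPM1 is lower in both groups with Dox, and ACTA2 overlaps between all groups.

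TAGLN (ENSG00000149591) and CSRP1, which encodes a LIM domain protein that binds the actin crosslinker alpha-actinin, were both lowest in OHT and higher in the groups with Dox than in Ctrl. TAGLN stood at 30.8, 34.8 and 32.8 CPM in Ctrl, at 23.3, 29.8 and 29.8 CPM in OHT, at 38.6, 37.3 and 39.3 CPM in Dox and at 44.01, 41.6 and 41.00 CPM in OHT_Dox. Every OHT library was below every Ctrl library, every Dox library was above both, and every OHT_Dox library was above every Dox library. CSRP1 (ENSG00000159176) stood at 163, 191 and 183 CPM in Ctrl, at 120.3, 153 and 160.0 CPM in OHT, at 224, 229.8 and 217 CPM in Dox and at 220.0, 225 and 225 CPM in OHT_Dox. Its OHT libraries were likewise all below Ctrl and its libraries with Dox all above, while Dox and OHT_Dox overlapped. In RNA from whole cultures, fewer cells that express a gene and less RNA per cell cannot be told apart.

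The change with Dox in the presence of OHT was the largest of any member for these 2 genes. OHT_Dox against OHT, TAGLN was higher by 0.61 ± 0.08 (log2 fold change ± SE on the log2(CPM + 0.5) scale, limma), or 1.53-fold, and CSRP1 by 0.64 ± 0.08, or 1.56-fold. By size these were the 27th and 21st of the 95 rises called at an adjusted p below 0.05 over all 18674 genes tested (limma, Benjamini-Hochberg). Over 21 alternative analyses the differences lay between 0.49 and 0.67 for TAGLN and between 0.51 and 0.72 for CSRP1. The lowest of each came without OHT replicate 1. Dox against Ctrl, the differences were 0.23 ± 0.08 for TAGLN, which did not pass, and 0.32 ± 0.08 for CSRP1, which did. The CSRP1 value was not called after TMM scaling (0.27), by edgeR (0.27), after removal of trends with GC content and length (0.21), or without Ctrl replicate 3, Dox replicate 1 or Dox replicate 2. The TAGLN value was called in 1 alternative, without OHT replicate 1.

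OHT against Ctrl, TAGLN differed by -0.25 ± 0.08 and CSRP1 by -0.32 ± 0.08, both past the threshold. Without OHT replicate 1 neither was called, with values of -0.13 and -0.19. TAGLN was also not called without Ctrl replicate 2, Ctrl replicate 3, Dox replicate 2 or OHT_Dox replicate 1, or with no filter on low values. OHT_Dox against Dox, the differences were 0.13 ± 0.08 for TAGLN (95% interval -0.04 to 0.31) and 0.00 ± 0.08 for CSRP1 (-0.17 to 0.17). The difference between the OHT effects with and without Dox (interaction) was 0.38 ± 0.12 for TAGLN and 0.31 ± 0.11 for CSRP1, and neither passed. TAGLN's interaction lay between 0.27 and 0.44 over the 21 alternatives and was called in 1 of them, without Ctrl replicate 1.

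Reads of TAGLN overlap those of PCSK7, a protease gene on the opposite strand that shares 446 exon bases with it (GENCODE release 29). Libraries were made with a stranded kit, but the strand setting of the counting is not given in the sources used here, so these reads cannot be told apart. PCSK7 fell by -0.25 ± 0.07 with OHT (adjusted p = 0.0157) and rose by 0.29 ± 0.07 in OHT_Dox against OHT (adjusted p = 0.0298, limma). The fall was not called without Ctrl replicate 3, OHT replicate 1 or OHT replicate 2, and the rise not without any 1 of OHT replicates 1 and 2 and the 3 OHT_Dox replicates. The ratio of PCSK7 to TAGLN CPM ranged from 1.28 to 1.93 over the libraries. CSRP1 shares 172 exon bases with the antisense gene AC096677.1, whose CPM was between 0.0132 and 0.0213 of that of CSRP1.

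**Figure D2:**
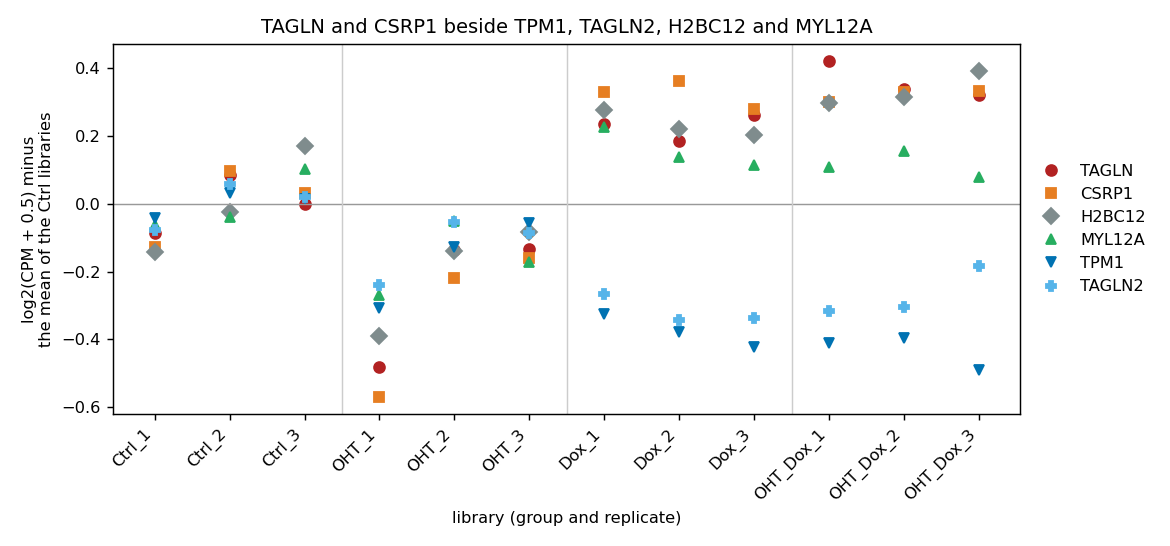
Log2(CPM + 0.5) minus the mean of the 3 Ctrl libraries (y axis) in each of the 12 libraries (x axis) for TAGLN, CSRP1, TPM1 and 3 genes named in the text, 1 point per gene and library. TAGLN, CSRP1 and H2BC12 lie below 0 in OHT and above 0 in every library with Dox, and TPM1 and TAGLN2 lie below 0 there.

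Tropomyosins lie along the actin filament, and TPM1 and TPM2 encode different forms. TPM1 (ENSG00000140416) stood at 601, 633 and 625 CPM in Ctrl, at 501, 567 and 595 CPM in OHT, at 494, 477 and 462 CPM in Dox and at 466, 471 and 441 CPM in OHT_Dox. Every library with Dox was below every library without it. The summed level of 5 epithelial markers, nearly all of it from the keratins KRT8 and KRT18, was likewise lower with Dox, at 1321 to 1448 CPM in Ctrl, 1191 to 1249 in OHT, 919.7 to 941 in Dox and 831 to 954 in OHT_Dox. EPCAM and CDH1, which define epithelial cells, lay at or below 1.25 CPM. The summed mesenchymal markers were 4139.7 to 4411 CPM in Ctrl, 4005 to 4245 in OHT, 3456 to 3638 in Dox and 3454 to 3641 in OHT_Dox. The part of either in the TPM1 values was not tested. Dox against Ctrl, TPM1 differed by -0.38 ± 0.06, past the threshold, and by -0.46 to -0.35 over the 21 alternatives. OHT_Dox against OHT it differed by -0.27 ± 0.06, which passed but was lost without OHT replicate 2, OHT replicate 3, OHT_Dox replicate 1 or OHT_Dox replicate 3. With OHT it differed by -0.16 ± 0.06 without Dox and by -0.06 ± 0.06 with it, neither called. The former was called without Ctrl replicate 1, without OHT replicate 3 and after removal of the trends with GC content and length.

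TPM2 (ENSG00000198467) stood at 163, 216 and 176 CPM in Ctrl, at 162, 176 and 187 CPM in OHT, at 174, 171 and 177 CPM in Dox and at 200.0, 189 and 206 CPM in OHT_Dox. The OHT_Dox libraries were all above those of OHT and of Dox, and Ctrl overlapped all of them. No comparison passed the threshold, with 0.19 ± 0.08 for OHT_Dox against Dox and 0.18 ± 0.08 for OHT_Dox against OHT. The interaction was 0.26 ± 0.11, called without Ctrl replicate 1 (0.35). TPM1 shares 691 exon bases with the antisense gene AC079328.2, whose CPM was between 0.439 and 0.475 of that of TPM1 in every library. AC079328.2 fell by -0.39 ± 0.07 Dox against Ctrl (adjusted p = 0.00205, limma). As the strand setting of the counting is not given, reads of the 2 genes cannot be told apart here either.

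The calponins and caldesmon bind actin and restrain the myosin ATPase. CNN2 (ENSG00000064666), the calponin of non-muscle cells, stood at 245, 229 and 265 CPM in Ctrl, at 198, 202 and 223 CPM in OHT, at 229, 242 and 266 CPM in Dox and at 220.4, 211 and 249 CPM in OHT_Dox. The OHT libraries lay below all Ctrl and all Dox libraries, and the other pairs of groups overlapped. OHT against Ctrl it differed by -0.25 ± 0.07, past the threshold but not without Ctrl replicate 3, OHT replicate 1 or OHT replicate 2. With Dox present its difference was -0.12 ± 0.07, not called, and lay between -0.23 and -0.06 over the 21 alternatives. It was called in 2 of them, without the pair Dox replicate 1 and OHT_Dox replicate 3 and after removal of the trends with GC content and length. Dox against Ctrl was 0.00 ± 0.07 (95% interval -0.15 to 0.15).

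CNN1 (ENSG00000130176), the calponin of smooth muscle, had 60 reads over the 3 Ctrl libraries, 33 in OHT, 66 in Dox and 46 in OHT_Dox, between 8 and 30 per library. The pooled level was 0.355 CPM in Ctrl (95% Poisson interval 0.271 to 0.457), 0.206 CPM in OHT (0.142 to 0.290), 0.411 CPM in Dox (0.318 to 0.523) and 0.305 CPM in OHT_Dox (0.223 to 0.407). These intervals cover counting error only. Each OHT library of CNN1 was below each Ctrl and each Dox library, and the other pairs of groups overlapped.

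CALD1 (ENSG00000122786), caldesmon, stood at 138, 131 and 127 CPM in Ctrl, at 141, 145 and 139 CPM in OHT, at 153, 153 and 148 CPM in Dox and at 152, 154 and 134 CPM in OHT_Dox. The OHT and the Dox libraries were above all Ctrl libraries, and OHT_Dox replicate 3 was apart from its group at a Ctrl level. Dox against Ctrl was 0.20 ± 0.06 and was called, but in only 8 of the 21 alternatives. It was 0.14 after TMM scaling, 0.15 by edgeR and by DESeq2 and 0.07 after removal of the trends with GC content and length, none of them called. The call was also lost without any 1 of Ctrl replicates 2 and 3, OHT replicate 3, the 3 Dox replicates and OHT_Dox replicate 1.

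ACTA2 (ENSG00000107796), smooth muscle alpha-actin, stood at 21.02, 21.7 and 23.8 CPM in Ctrl, at 20.04, 21.3 and 20.8 CPM in OHT, at 21.9, 20.7 and 23.8 CPM in Dox and at 23.4, 21.8 and 19.3 CPM in OHT_Dox. All 4 groups overlapped. Its differences lay between -0.10 ± 0.08 (OHT against Ctrl) and 0.05 ± 0.08 (OHT_Dox against OHT, 95% interval -0.12 to 0.23), and none was called in any alternative. ACTA2 shares exon bases on the opposite strand with ACTA2-AS1 (516 bases) and with the death receptor gene FAS (380 bases). Relative to the CPM of ACTA2, that of ACTA2-AS1 was 0.379 to 0.459 and that of FAS 0.739 to 0.951.

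MYL9 (ENSG00000101335), the regulatory myosin light chain of smooth muscle, was nearly absent. It had 0, 5 and 0 reads in the Ctrl libraries, 0, 4 and 0 in OHT, 4, 6 and 6 in Dox and 0, 2 and 2 in OHT_Dox. A count of 0 allows up to 3 reads, or 0.0520 to 0.0675 CPM over the libraries. Each Dox library held more reads than each OHT_Dox library, and with so few reads MYL9 did not pass the filter for the test.

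VCL (ENSG00000035403), vinculin, which links actin to integrin and cadherin adhesions, stood at 318, 267 and 275 CPM in Ctrl, at 297, 259.9 and 284 CPM in OHT, at 301, 309 and 316 CPM in Dox and at 271, 264 and 260.2 CPM in OHT_Dox. Every OHT_Dox library was below every Dox library, and Ctrl replicate 1 was the highest of all. OHT_Dox against Dox it differed by -0.22 ± 0.06, past the threshold. The call was lost without Dox replicate 3, without OHT_Dox replicate 3 and after removal of the trends with GC content and length (-0.12). AP3M1, a gene on the opposite strand that shares 1109 exon bases with VCL, fell by -0.22 ± 0.07 in that comparison (adjusted p = 0.0225) and rose by 0.43 ± 0.07 Dox against Ctrl (adjusted p = 0.00135, limma), where VCL differed by 0.11 ± 0.06. The AP3M1 fall was lost without Dox replicate 1, OHT_Dox replicate 1 or OHT_Dox replicate 3, and its rise was called in all 21 alternatives.

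**Figure D3:**
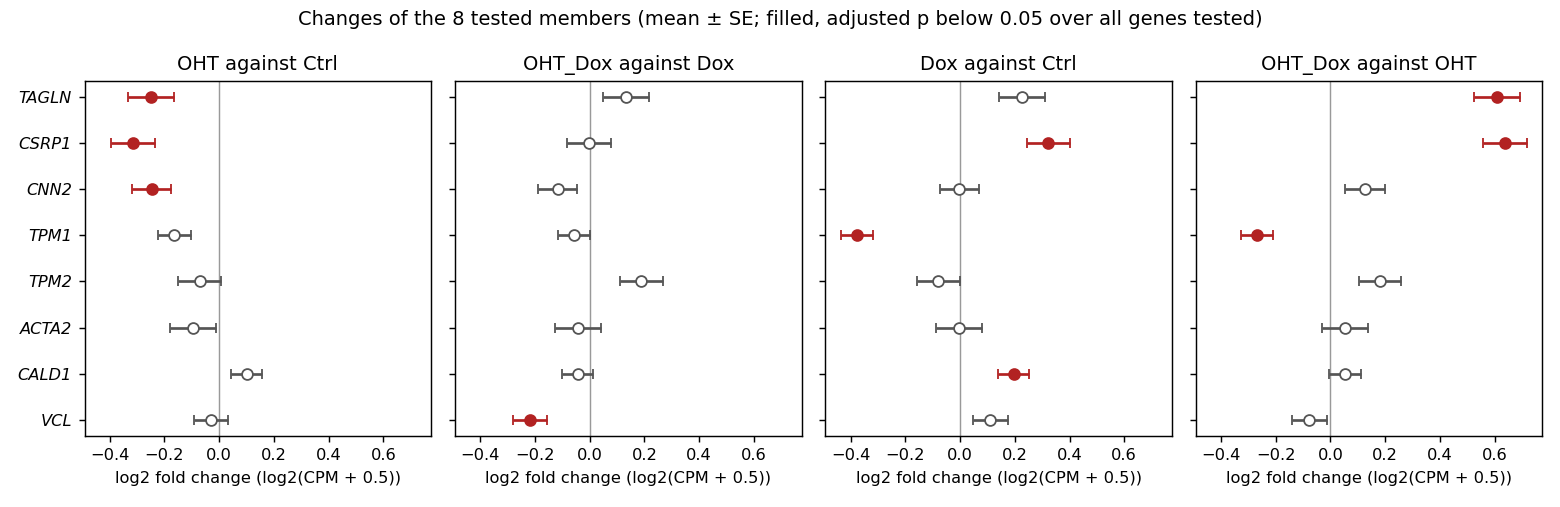
Log2 fold change ± SE (x axis) of the 8 tested genes (y axis) in the 4 comparisons, filled, as a description, where the adjusted p was below 0.05 over all genes tested. The filled points furthest from 0 are TAGLN and CSRP1 in OHT_Dox against OHT, at 0.61 and 0.64, and TPM1 is to the left of 0 in all 4 panels.

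Counted over the list, 3 of the 8 tested members were called OHT against Ctrl, all lower (TAGLN, CSRP1 and CNN2), where 21.4% of all genes tested were called (8.79% lower). In OHT_Dox against Dox it was 1 (VCL, lower), with 26% of all genes called (14.5% lower). In Dox against Ctrl it was 3, CSRP1 and CALD1 higher and TPM1 lower, with 8.29% called (5.68% higher and 2.61% lower). In OHT_Dox against OHT it was again 3, TAGLN and CSRP1 higher and TPM1 lower, with 2.1% called (0.509% higher and 1.59% lower). These comparisons share libraries, and since the list was drawn up with the results known, nothing is read from the counts. The count of 3 with OHT became 0 without OHT replicate 1 and 1 without Ctrl replicate 3. That of 3 with Dox became 1 without Ctrl replicate 3, Dox replicate 1 or Dox replicate 2. The count of 1 in OHT_Dox against Dox became 0 without Dox replicate 3 or OHT_Dox replicate 3, and 2 without Ctrl replicate 1 or 2. The medians of the 8 were -0.13, -0.04, 0.05 and 0.09 in these 4 comparisons, beside -0.01, -0.03, 0.05 and 0.02 over all genes tested. The groups did not overlap for 5, 3, 4 and 4 of the 8, beside 34.2%, 41.2%, 28.9% and 18.7% of all genes tested. No interaction was called for a member (2 without Ctrl replicate 1, TAGLN and TPM2), and none was called among all genes by limma (0%) or edgeR, with 1 by DESeq2. Without Ctrl replicate 1 limma called 272 interactions higher and 769 lower among all genes. At an unadjusted p below 0.05 limma gave 2879 genes of 18674, among them 4 of the 8 members.

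Among all genes, Dox against Ctrl, 1061 were called higher and 487 lower as deposited, and 519 and 771 after TMM scaling. Without single libraries the split was 2274 and 906 (without Ctrl replicate 1), 152 and 199 (Ctrl replicate 2), 109 and 122 (Ctrl replicate 3), 597 and 264 (Dox replicate 1), 85 and 112 (Dox replicate 2) and 392 and 217 (Dox replicate 3), so both the number and the direction of calls depended on the scaling and on these libraries. In OHT_Dox against OHT the 95 and 297 became 41 and 155 without OHT replicate 1, 32 and 172 without OHT_Dox replicate 1 and 53 and 208 without OHT_Dox replicate 3. In OHT_Dox against Dox the split was 2153 higher and 2709 lower as deposited, and 2553 and 2220 after TMM scaling. TAGLN and CSRP1 were positive and TPM1 was negative with Dox under both scalings, with and without OHT. Summed over the 10 members, the level was 1703.6 ± 22.2 CPM in Ctrl, 1551.5 ± 88.4 in OHT, 1641.7 ± 6.62 in Dox and 1583.7 ± 12.3 in OHT_Dox (SD, n = 3).

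The genes whose pattern lay nearest to that of TAGLN were found by the root mean square difference of log2(CPM + 0.5), centred on each gene's mean, over the 12 libraries. Among all 13073 genes averaging 5 CPM or more, CSRP1 was the nearest, at 0.0787. Both are members chosen with these values in view, so this rank is a description. Both also lay below their group mean in OHT replicate 1, by -0.23 (TAGLN) and -0.25 (CSRP1) on the log2 scale. Of the other members the next was TPM2 (0.210), and TPM1 was far away (0.381). Outside the list, after genes without a symbol and those with clone, LOC, LINC or antisense names were also left out, the nearest 8 of the 11295 left were H2BC12 (0.0827), KCTD6, BNIP3, H2BC11, EGR1, HLA-B, PLA2G4C and MYL12A (0.146). H2BC12 and H2BC11 encode histone H2B, EGR1 an immediate early transcription factor and BNIP3 a mitochondrial protein of autophagy. H2BC12, as the nearest, differed by 0.54 ± 0.08 in OHT_Dox against OHT. MYL12A, the last of the 8, encodes a non-muscle regulatory myosin light chain and is a close relative of MYL9.

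A wider list of 77 genes of actin, myosin and their control was examined beside the members. Of these, 76 were in the table and 67 were tested. With OHT 4 rose and 17 fell (21.4% of all genes called, 12.6% higher and 8.79% lower), and with OHT in the presence of Dox 2 rose and 14 fell (26% called, 11.5% higher and 14.5% lower). With Dox 8 rose and 1 fell (8.29% called), and in OHT_Dox against OHT 1 rose and 1 fell (2.1% called). The list's medians were -0.11, -0.11, 0.05 and 0.05. No interaction was called by limma, with 15 of the 67 at an unadjusted p below 0.05. The counts of called genes moved with single libraries. With OHT the 21 became 10 without OHT replicate 1. With Dox the 9 became 22 without Ctrl replicate 1, 3 without Ctrl replicate 2, 4 without Dox replicate 1, 5 without Dox replicate 3, and 1 without either Ctrl replicate 3 or Dox replicate 2. They were 3 after TMM scaling, so the number of rises with Dox depends on the scaling and on these libraries. The 2 calls in OHT_Dox against OHT became 0 without any 1 of OHT replicates 1 and 3 and OHT_Dox replicates 1 and 2, and 1 without any 1 of OHT replicate 2, OHT_Dox replicate 3 and Dox replicates 2 and 3. Without Ctrl replicate 1, 7 interactions were called.

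Of 10 tested paralogues of the members, 4 fell with OHT (8.79% of all genes fell) and none passed in OHT_Dox against Dox (26% of all genes called; 3 of the 10 at an unadjusted p below 0.05, limma). The 4 became 1 without OHT replicate 1 and 2 without Ctrl replicate 2. MYL6, the essential myosin light chain, fell by -0.41 ± 0.08 with OHT, from 432 ± 71.6 to 322 ± 28.02 CPM (adjusted p = 0.00125). CSRP2 fell by -0.36 (adjusted p = 0.0106) and MYL12B by -0.23 (adjusted p = 0.0131), and neither was called without OHT replicate 1. CSRP2 was also not called without Ctrl replicate 2, and MYL12B not without Ctrl replicate 3 or OHT replicate 3. TAGLN2, the transgelin of non-muscle cells, fell with Dox. Its libraries stood at 857, 942 and 917 CPM in Ctrl and at 753, 713 and 716 CPM in Dox, a difference of -0.32 ± 0.06 (adjusted p = 0.00495). OHT_Dox against OHT it differed by -0.14 ± 0.06 (adjusted p = 0.284). MYL12A rose by 0.28 ± 0.06 in that comparison (adjusted p = 0.0164), from 178 ± 13.5 to 216 ± 5.96 CPM, and the call was lost without OHT replicate 1, OHT replicate 3, OHT_Dox replicate 1 or OHT_Dox replicate 2.

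Among 8 tested smooth muscle genes, 3 fell and 1 rose with OHT (8.79% and 12.6% of all genes), and 2 fell and 1 rose in OHT_Dox against Dox (14.5% and 11.5%). SMTN, smoothelin, a marker of contractile smooth muscle, stood at 43.3, 52.1 and 50.1 CPM in Ctrl, at 27.9, 28.9 and 32.5 CPM in OHT, at 45.1, 49.4 and 49.1 CPM in Dox and at 35.98, 33.00 and 36.8 CPM in OHT_Dox. It fell with OHT by -0.69 ± 0.08 without Dox (adjusted p = 2.58e-06) and by -0.44 ± 0.08 with Dox (adjusted p = 3.90e-04). All libraries with OHT lay below all without it. FILIP1L fell by -0.82 ± 0.11 (adjusted p = 1.20e-05) and -0.83 ± 0.11 (adjusted p = 1.03e-05). MYH11, smooth muscle myosin heavy chain, fell by -0.44 ± 0.09 with OHT (adjusted p = 0.00124), and SYNM, an intermediate filament protein, rose by 0.42 ± 0.07 (adjusted p = 3.46e-04). None of the 8 passed with Dox in limma, where 2 had an unadjusted p below 0.05 without OHT and 3 with it, and edgeR and DESeq2 each called 1, lower, in each background. The SYNM rise in OHT_Dox against Dox (0.26 ± 0.07, adjusted p = 0.0134) was lost without Dox replicate 1 or OHT_Dox replicate 2.

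Of the genes for the factors that control SRF targets, SRF itself rose with OHT. Those for its coactivators MRTFA and MRTFB were not called in the main limma fit, and were nearest to the threshold in OHT_Dox against Dox. SRF rose with OHT, from 85.6 ± 3.12 to 97.8 ± 1.77 CPM (0.19 ± 0.06, adjusted p = 0.0182), and from 89.00 ± 1.1 to 104 ± 6.59 CPM in the presence of Dox (0.23 ± 0.06, adjusted p = 0.00473). The former was not called without Ctrl replicate 2 or OHT replicate 1. With Dox SRF differed by 0.06 ± 0.06 and, with OHT present, by 0.09 ± 0.06, neither called. MRTFA and MRTFB passed in no comparison of that fit. Their differences were -0.17 ± 0.10 and 0.05 ± 0.13 OHT against Ctrl, and 0.10 ± 0.10 and 0.32 ± 0.13 Dox against Ctrl. OHT_Dox against OHT they were 0.02 ± 0.10 and -0.08 ± 0.13. OHT_Dox against Dox they were -0.25 ± 0.10 and -0.35 ± 0.13 (adjusted p = 0.0716 and 0.0606, limma). In this last comparison the falls called among the 9 tested genes of this group were 1 in the main fit. They were 3 with the replicate block, and 2 without Ctrl replicate 1 or 3 or OHT replicate 1 or 2. MYOCD did not pass the filter on low values. ELK4, an ETS factor that competes with the MRTFs for SRF, rose with OHT by 0.40 ± 0.08 (adjusted p = 0.00149), and ELK3, another, fell by -0.25 ± 0.06 in OHT_Dox against Dox (adjusted p = 0.00372). Of 9 tested genes of this group, FHL1 (0.24) and ELK3 (0.20) rose with Dox (5.68% of all genes rose), neither of them after TMM scaling or without Ctrl replicates 2 or 3 or Dox replicates 2 or 3, and ELK3 also not without OHT replicate 3, Dox replicate 1 or OHT_Dox replicate 1. None of the 9 passed in OHT_Dox against OHT in limma, edgeR or DESeq2, with 0 at an unadjusted p below 0.05 in limma.

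Of 18 genes of ROCK signalling and myosin regulation, a group that also holds MYL6, 4 fell and none rose with OHT (21.4% of all genes called, 8.79% lower), and 5 fell in OHT_Dox against Dox (26% called, 14.5% lower). Without Ctrl replicate 1, 6 fell and 4 rose with OHT. The 5 became 2 without Dox replicate 1 and 3 without OHT_Dox replicate 1 or OHT_Dox replicate 3, and 3 after TMM scaling. LIMK2, a kinase that inactivates the actin-severing protein cofilin, fell by -0.31 ± 0.06 (adjusted p = 0.00105) and -0.26 ± 0.06 (adjusted p = 0.00354). PPP1R12A, the targeting subunit of myosin phosphatase, fell by -0.27 ± 0.06 (adjusted p = 0.00435) and -0.42 ± 0.06 (adjusted p = 6.21e-05). None of the 18 passed with Dox in limma, where 5 had an unadjusted p below 0.05 without OHT and 2 with it. Without Ctrl replicate 1, 4 rose and 2 fell Dox against Ctrl. Among 25 actin bundling, filament and adhesion genes, 7 fell and 1 rose with OHT (8.79% and 12.6% of all genes), and 6 fell in OHT_Dox against Dox (14.5% of all genes). The 7 falls became 2 without Ctrl replicate 3 or OHT replicate 1, and 4 without OHT replicate 2. VASP, which promotes filament elongation, fell by -0.35 ± 0.05 (adjusted p = 9.22e-05) and TGFB1I1, an adhesion protein also known as Hic-5, by -0.54 ± 0.09 (adjusted p = 1.29e-04) OHT against Ctrl. In OHT_Dox against Dox TGFB1I1 fell by -0.43 ± 0.09 (adjusted p = 9.49e-04) and PALLD, palladin, by -0.27 (adjusted p = 0.00175).

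With Dox 6 of these 25 rose and none fell (5.68% and 2.61% of all genes). The 6 became 0 without Ctrl replicate 3 or Dox replicate 2, 2 without Ctrl replicate 2 or Dox replicate 1 and 2 after TMM scaling, and without Ctrl replicate 1 it was 9 rises and 1 fall. ENAH, a relative of VASP, rose by 0.30 ± 0.06 (adjusted p = 0.00990), LIMA1 by 0.24 ± 0.06 (adjusted p = 0.0177) and FLNC, a filamin, by 0.29 ± 0.07 (adjusted p = 0.0226). All 3 calls were lost without Dox replicate 2 and without Ctrl replicate 3. LIMA1 was also not called after TMM scaling (0.19) or without Dox replicate 1, and FLNC not without Ctrl replicate 2 or Dox replicate 3. After removal of the trends with GC content and length ENAH was at 0.08 and LIMA1 at 0.11, not called. In OHT_Dox against OHT 1 of the 25 passed, lower (1.59% of all genes fell). It was TNS3, a tensin (-0.31 ± 0.08, adjusted p = 0.0389), which was lost in 11 of the 21 alternatives, among them those without any 1 of the OHT and OHT_Dox libraries. In this comparison, where TAGLN and CSRP1 were higher, 1 gene of the 67 tested in the wider list rose, MYL12A (0.509% of all genes rose). The count does not show whether the rise was particular to TAGLN and CSRP1.

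**Figure D4:**
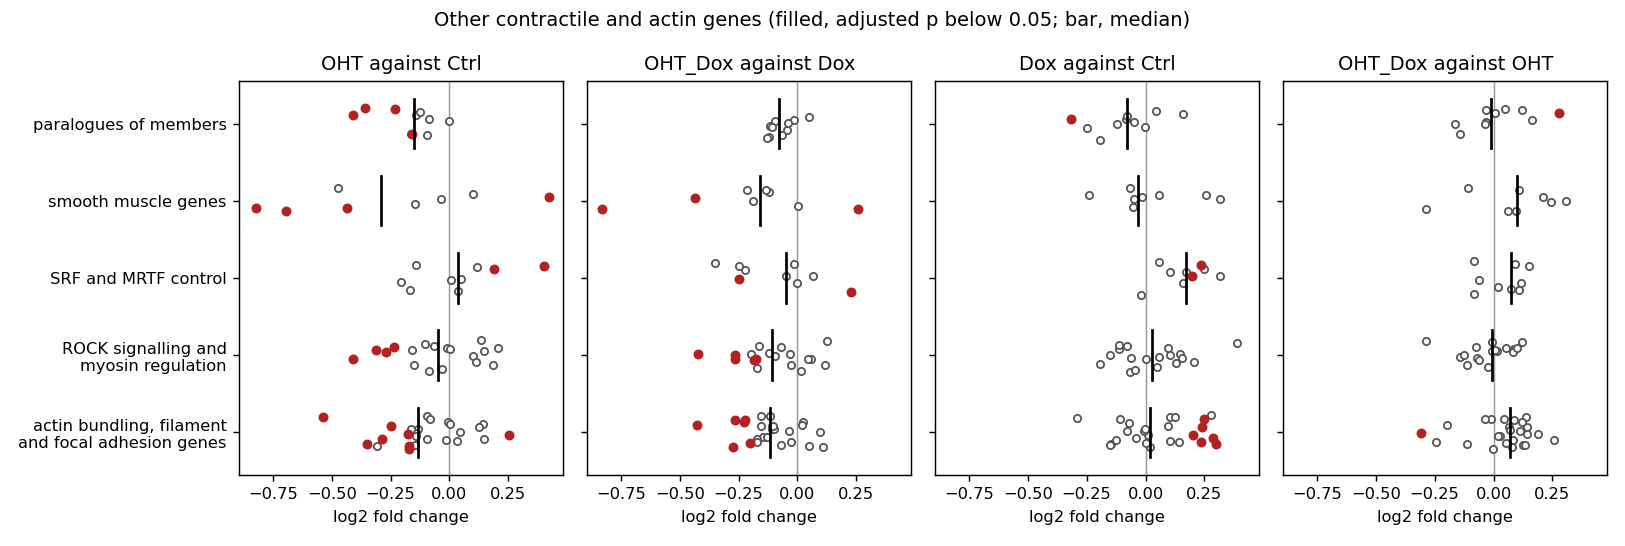
Log2 fold changes (x axis) of the tested genes of 5 groups of the wider list (y axis) in the 4 comparisons, 1 point per gene, filled where the adjusted p was below 0.05, with a bar at the group median. Filled points lie mostly left of 0 in both comparisons with OHT as the treatment, mostly right of 0 in Dox against Ctrl, and are few in OHT_Dox against OHT.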

How the data were processed

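Poly(A) RNA-seq was made from 12 SHEP libraries in 4 groups of 3 with a stranded kit, per the labels' protocols. For 28576 genes the authors deposited CPM, in which every library adds up to 1e+06. Among tools, featureCounts, STAR, Bowtie, Bowtie2, FastQC and DRAGEN are listed in the submitters' processing notes, with the builds mm10 and hg19. Which of them made this table, and with which strand setting, is not given in the sources used here.

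The members and gene lists were chosen with earlier results of these data known, so no list serves as independent support. The 18674 genes with at least 0.5 CPM in at least 3 libraries were fitted as log2(CPM + 0.5) with limma 3.58.1 (R 4.3.3), with 4 group means, a mean trend and Benjamini-Hochberg adjustment over all genes tested. A call is an adjusted p below 0.05, two-sided. The pseudocount of 0.5 understates changes of low genes. For each list and comparison the genes with the smallest p were named, plus SRF, MRTFA, MRTFB and MYOCD, and PCSK7, AC079328.2, AP3M1 and AC096677.1 for their overlap with members. The self-test used simulated data.

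Whole reads could be recovered from the deposited CPM for 100% of values (within 0.01 of a whole number), and edgeR 4.0.16 and DESeq2 1.42.0 were run on them as alternatives. Other alternatives were pseudocounts of 0.1 and 1, no filter, TMM scaling, a replicate block and leaving out each library. Removing each library's trend with GC content and length, and leaving out Dox replicate 1 with OHT_Dox replicate 3, were chosen after seeing the data. Exon lengths and overlaps came from GENCODE release 29, which matched 28572 identifiers, and promoter windows from RefSeq on GRCh38.p14. The Poisson intervals of CNN1 cover counting error only. The intervals of log2 fold changes come from the limma standard errors and reflect the scatter of these libraries.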

Additional observations from a re-analysis of the deposited data

How the results depend on the processing

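The counts of called genes were recomputed under 21 alternatives, and no called value of a member changed sign. Among members, the 3 calls of Dox against Ctrl became 1 after TMM scaling, by edgeR and after removal of trends with GC content and length. In the wider list, the 9 calls of Dox against Ctrl became 3 after TMM scaling, 4 by edgeR, 14 with the replicate block and 4 without the pair Dox replicate 1 and OHT_Dox replicate 3. The 2 calls of OHT_Dox against OHT became 1 with no filter, 5 by DESeq2, 5 with the replicate block, 1 without that pair and 6 after removal of the GC and length trends. The cause was not tested.

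Leaving out 1 library at a time gave 0 to 4 member calls OHT against Ctrl, 0 to 2 in OHT_Dox against Dox, 1 to 4 in Dox against Ctrl, 2 to 3 in OHT_Dox against OHT and 0 to 2 interactions. In the wider list the ranges were 10 to 30, 13 to 18, 1 to 22, 0 to 3 and 0 to 7. The split of calls over all genes in Dox against Ctrl was 1061 higher and 487 lower as deposited, 515 and 804 by edgeR, 838 and 1107 by DESeq2 and 379 and 791 after removal of the GC and length trends. Leaving out 1 library moved it from 85 and 112 (Dox replicate 2) to 2274 and 906 (Ctrl replicate 1).

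Replicate numbers are shared between groups, but deviations of same-numbered libraries correlated between -0.17 and 0.33 (number 1), -0.07 and 0.20 (number 2) and 0.05 and 0.25 (number 3), so the numbers were not taken as a pairing. For 9 of 12 libraries the best match had the same number, which is a hint from the data only. With the replicate block 4, 1, 3 and 3 members were called in the 4 comparisons and 0 interactions, and 27, 23, 14 and 5 genes of the wider list and 0 interactions. The added call was TPM1 OHT against Ctrl. At their depth CNN1 and MYL9 limit what can be said of them.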
